A study of Mus musculus with 15 samples.

Results

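The 34 genes described here make, sense, store and export cholesterol. They were taken as the rows of the deposited count matrix whose Ensembl identifiers carry the member symbols, which gave 34 of 53465 identifiers, and all 34 passed the filter on low counts and were among the 13938 genes tested. By role, 18 encode enzymes of cholesterol synthesis, 5 encode the SREBP transcription factors and the proteins that hold or escort them, 5 act in sterol transport, storage or hydroxylation within the cell, and 6 are the LXR nuclear receptors and genes of efflux or of uptake control. The RNA came from mouse BMDMs, the macrophages that bone marrow cells become when cultured with M-CSF. The groups were control cells without added cytokine, cells given IL-4 at 10 ng/ml, IL-4 at 10 ng/ml with IL-6 at 40 ng/ml (IL-4+IL-6), IL-13 at 40 ng/ml, and IL-13 at 40 ng/ml with IL-6 at 40 ng/ml (IL-6+IL-13), all harvested at 24 h with 3 libraries each. No group with IL-6 alone was sequenced, so the effect of IL-6 is seen here only on top of IL-4 or IL-13. Because IL-4 and IL-13 were given at different doses, the cytokine and its dose cannot be told apart. The labels do not say whether the replicates came from separate animals or cultures, so the p-values measure the spread between these libraries. The RNA is from bulk cultures, in which fewer cells of a type and less RNA per cell cannot be told apart.

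Cells make cholesterol from acetyl-CoA by way of mevalonate, squalene and lanosterol. When membranes of the endoplasmic reticulum are poor in sterols, SCAP escorts the SREBP proteins to the Golgi, where they are cut and released to switch on the genes of synthesis, while INSIG proteins hold SCAP back when sterols are plentiful. Oxysterols activate the LXR receptors, which in macrophages switch on the exporters ABCA1 and ABCG1, apolipoprotein E and MYLIP, a ubiquitin ligase that degrades lipoprotein receptors.

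Library totals ranged from 17001352 to 18918686 counts, of which the 34 genes held between 0.995% and 1.67%. Levels are given as normalized CPM, that is CPM computed on library totals scaled by TMM factors, and the 3 values of a group stand in the order of the replicate numbers. The 8 macrophage markers summed to between 18900 and 21100 normalized CPM in control, 17100 and 19800 in IL-13, 14300 and 14800 in IL-4, 13900 and 14800 in IL-6+IL-13, and 10900 and 12700 in IL-4+IL-6, with no marker at the detection limit of 3 counts. Lyz2, a lysozyme, made up most of each sum, with means from 6852 in IL-4+IL-6 to 14924 in control. The members of this list moved both ways, with 5 lower and 1 higher than control in IL-4, 3 and 3 in IL-13, 5 and 3 in IL-4+IL-6, and 4 and 4 in IL-6+IL-13. Mertk, an efferocytosis receptor, averaged 143 in control and between 8.27 and 17.9 in the cytokine groups, while Cd68 averaged 1317 in control and between 1509 and 1723 in them. The control libraries also stood apart in markers of other cells. The 10 granulocyte and precursor markers summed to between 493 and 582 normalized CPM in control and between 1.64 and 3.53 in the cytokine groups, where Retnlg was at 0 in every group. Between 4 and 7 of the 10 were at or under 3 counts in every library of a cytokine group. Markers of dendritic cells, B cells, mast cells and basophils, and stromal cells summed by list to between 10.2 and 26.8 in control and to at most 1.55 in the cytokine groups, where all 5 mast cell and basophil genes were at that limit. The T cell and erythroid genes did not pass the filter. These markers moved with every comparison against control below, and their part in those results was not tested. Other lists moved with IL-6. The 13 cell cycle genes summed to between 2290 and 2600 normalized CPM in the IL-4 and IL-13 libraries and between 1080 and 1630 in the libraries that also had IL-6, and all 13 were called lower with IL-6 in both arms. Control libraries summed to between 1320 and 1500, and against them the list did not move one way, with 6 genes higher and 6 lower in IL-4 and 7 and 5 in IL-13. Pcna averaged 288 in control and 1029 in IL-4, where Mki67 went from 429 to 142. The 5 megakaryocyte and platelet genes summed to between 371 and 416 in control, 70.4 and 89.7 in the IL-4 and IL-13 libraries, and 175 and 422 in those that also had IL-6. Pf4 made up most of the latter sums, with means of 235 in IL-4+IL-6 and 390.1 in IL-6+IL-13 beside 68.7 and 75.5 in the partners without IL-6, while Itga2b, the platelet integrin, averaged between 1.47 and 1.72 in the cytokine groups and 114 in control. Their part in the IL-6 comparisons was not tested. Replicate 2 of IL-4+IL-6 lay farthest from its group mean over all genes, with a root mean square deviation of 0.314 on the log2 scale.

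**Figure D1:**
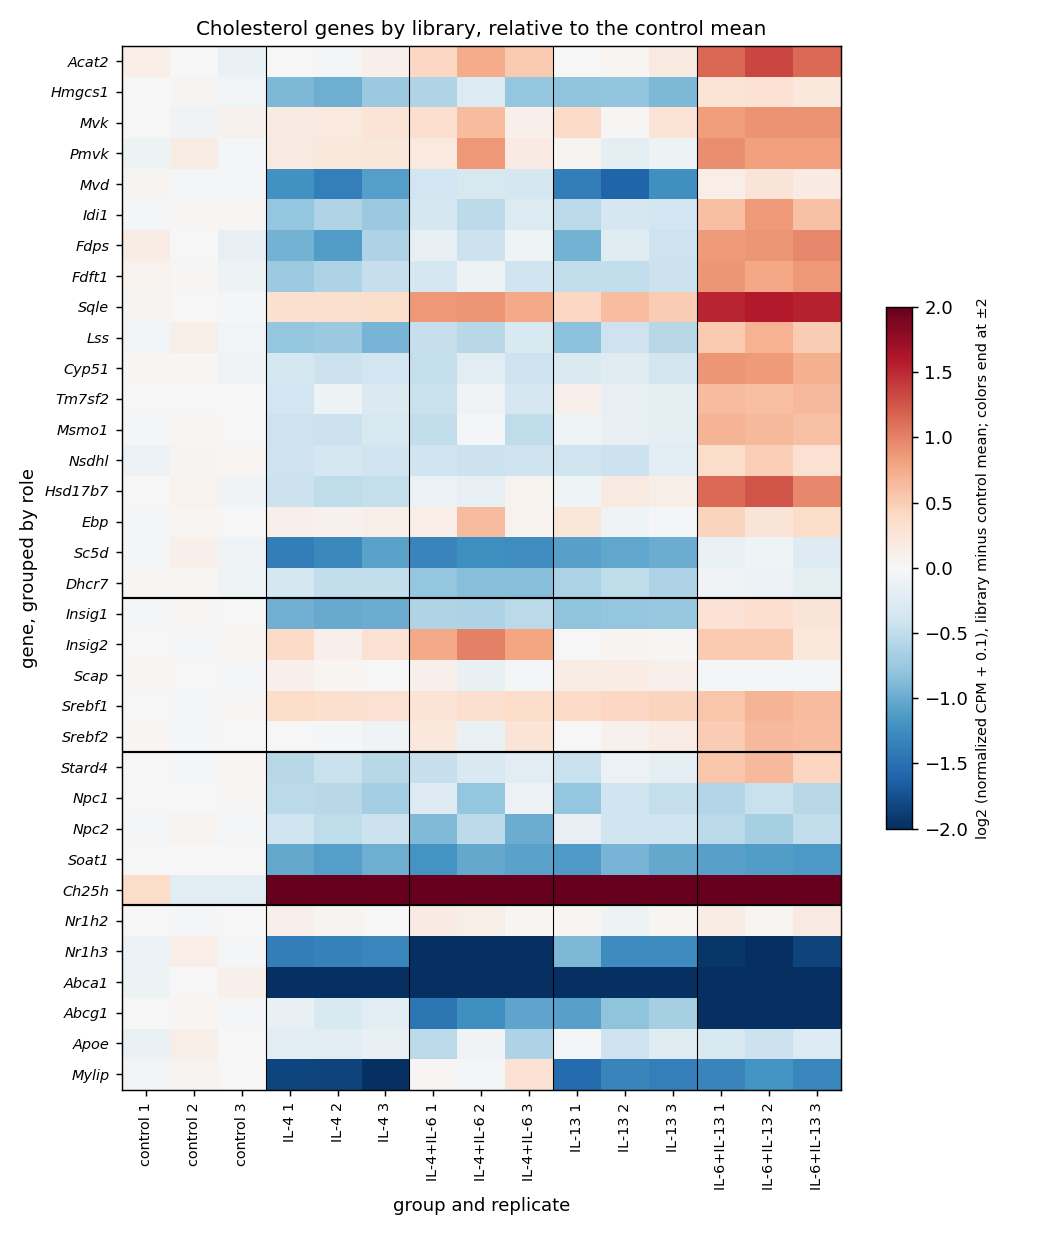
The 34 genes by role (vertical axis) in the 15 libraries (horizontal axis), colored by the log2 of normalized CPM plus 0.1 minus the same for the control mean, with colors ending at 2 in either direction. The synthesis enzymes in the upper block are mostly blue with IL-4 or IL-13 and red in IL-6+IL-13, and Abca1 and Nr1h3 are blue in all 12 cytokine libraries while Ch25h is red in them.

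The question for IL-4 and for IL-13 alone was how each cytokine moved the 34 genes from control. With edgeR's quasi-likelihood test and Benjamini-Hochberg adjustment over all genes tested (a call being an adjusted p under 0.05), IL-4 raised 4 of the 34 genes against 32.1% of all genes and lowered 20 against 35.9%. IL-13 raised 3 against 29.0% and lowered 19 against 31.1%. By a stricter rule that also asks for a change over 1.5-fold, IL-4 raised 1 against 19.9% and lowered 13 against 24.6%, and IL-13 raised 1 against 16.4% and lowered 10 against 19.7%. The median log2 fold change over the 34 genes was -0.42 for IL-4 and -0.31 for IL-13, beside medians over all genes of -0.048 and -0.019. Both comparisons use the same control libraries.

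When IL-6 was added to IL-4, 13 of the 34 genes rose against 20.7% of all genes and 5 fell against 18.7%. By the stricter rule, 5 rose against 8.11% and 3 fell against 11.8%. When IL-6 was added to IL-13, 23 rose against 12.1% and 3 fell against 13.5%, and by the stricter rule 19 rose against 5.24% and 3 fell against 7.39%. The median log2 fold change of the 34 genes was 0.18 with IL-4 and 0.72 with IL-13, beside 0.038 and 0.005 over all genes.

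The difference between these IL-6 effects was tested as an interaction. The IL-6 effect was higher with IL-4 than with IL-13 for 1 of the 34 genes against 3.22% of all genes, and lower with IL-4 for 17 against 4.42%. The median difference was -0.56 on the log2 scale over the 34 genes, beside 0.022 over all genes. In comparison with control, IL-4+IL-6 left 8 genes higher against 35.4% and 20 lower against 37.5%, whereas IL-6+IL-13 left 21 higher against 31.9% and 8 lower against 32.1%. By the stricter rule IL-4+IL-6 left 3 higher against 23.9% and 8 lower against 27.9%, and IL-6+IL-13 left 14 higher against 18.4% and 5 lower against 22.4%.

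**Figure D2:**
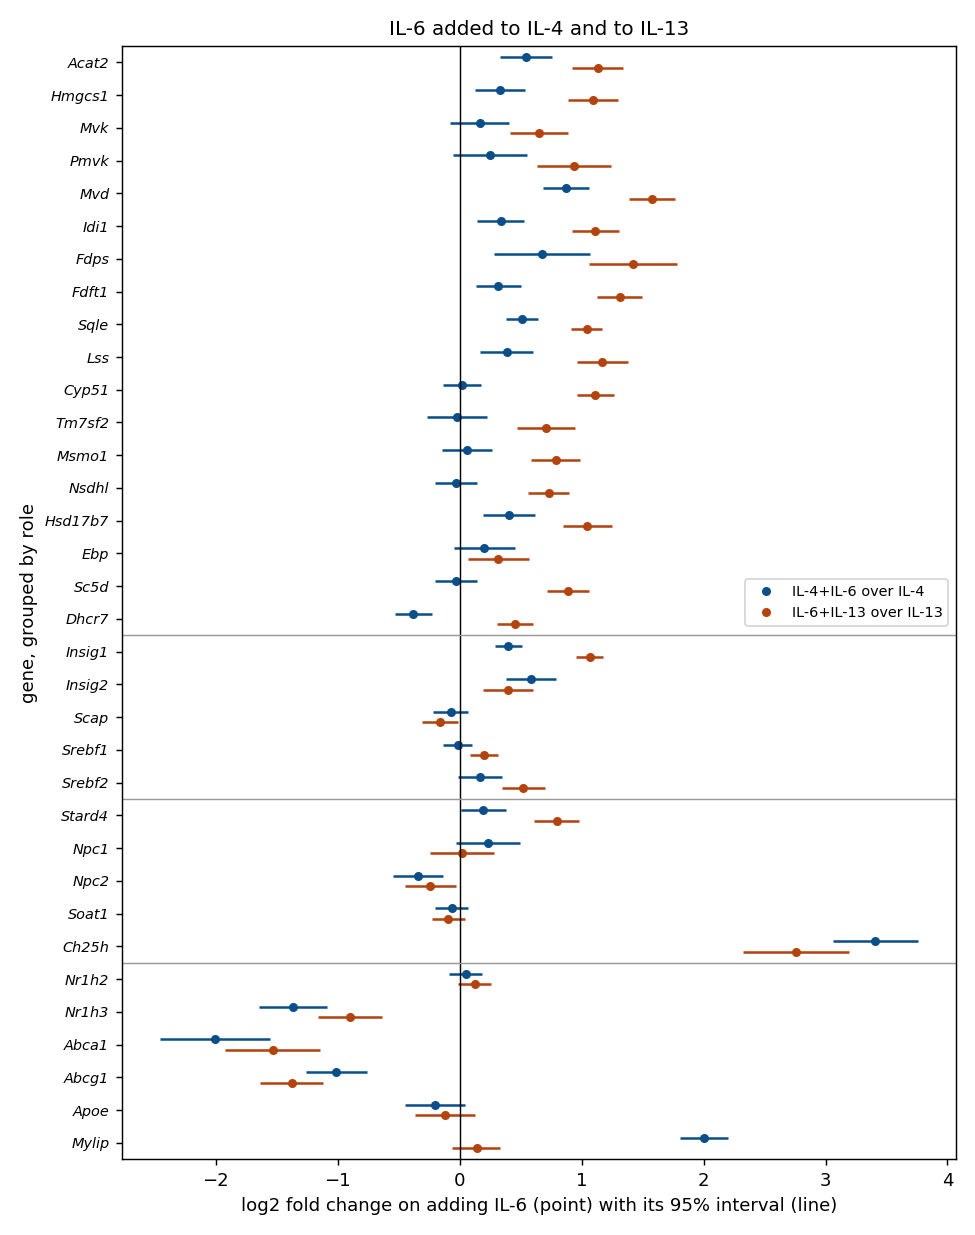
The log2 fold change on adding IL-6 to IL-4 (blue) and to IL-13 (orange) for each of the 34 genes, with lines for the 95% interval of the fit and genes grouped by role. The orange points lie to the right of the blue points for all 18 synthesis enzymes, Ch25h lies farthest to the right for both, and Mylip stands at 2.00 with IL-4 against 0.14 with IL-13.

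Of the 18 enzymes of synthesis, IL-4 lowered 12 and raised 1, with 5 not called and a median log2 fold change of -0.42, and IL-13 lowered 10 and raised 1, with 7 not called and a median of -0.32. Over all genes the shares lower and higher were 35.9% and 32.1% with IL-4, and 31.1% and 29.0% with IL-13. The enzymes raised by IL-4 numbered 4 with only the libraries compared and 3 with no filter on low counts. In each of these comparisons 5 of the 18 had values above 0. Adding IL-6 to IL-4 raised 9 (20.7% of all genes) and lowered 1 (18.7%), with a median of 0.28. Adding IL-6 to IL-13 raised 17 (12.1%) and lowered 0 (13.5%), with a median of 1.04 (2.06-fold). In all 18 the 3 IL-6+IL-13 libraries lay above the 3 IL-13 libraries, but the share of all genes that separate in this way was not counted. Against control, 15 of the 18 were higher in IL-6+IL-13 and 0 lower (median 0.67, 1.59-fold), beside 31.9% and 32.1% of all genes, while in IL-4+IL-6 there were 5 higher and 11 lower (median -0.30), beside 35.4% and 37.5%. The interaction test called 15 of the 18, beside 4.42% of all genes called lower, and the IL-6 effect was smaller with IL-4 in all 15. Summed over the 18 enzymes, in a sum that weighs abundant and long transcripts more, the level was between 1082.5 and 1148.5 normalized CPM in control, 800.5 and 843 in IL-4, 878 and 892 in IL-13, 909 and 1069 in IL-4+IL-6, and 1669 and 1777 in IL-6+IL-13. In IL-4+IL-6 the highest of these sums was that of replicate 2. Without that library, IL-6 with IL-4 raised 7 enzymes, 3 were higher than control in IL-4+IL-6, and the interaction was called for 16. Shares over all genes are not given for that fit, so these counts cannot be set against them.

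The first steps build mevalonate and convert it to the isoprenoid unit. Hmgcs1, the cytosolic HMG-CoA synthase, measured 145, 151 and 139 normalized CPM in control, 78.1, 73.8 and 86.4 in IL-4 and 82.8, 83.8 and 77.8 in IL-13, a fall of 1.82-fold with IL-4 (log2 fold change -0.87, SE 0.10, adjusted p = 5.76e-07) and of 1.78-fold with IL-13 (log2 fold change -0.83, SE 0.10, adjusted p = 1.25e-06). With IL-6 it measured 95.7, 119.9 and 84.8 in IL-4+IL-6 and 176, 178 and 169 in IL-6+IL-13. The IL-6+IL-13 libraries did not overlap with IL-13 and rose 2.14-fold (log2 fold change 1.10, SE 0.10, adjusted p = 1.35e-07), whereas the IL-4+IL-6 libraries overlapped with IL-4, and their rise of 1.26-fold (adjusted p = 0.0115) was not called without replicate 2 of IL-4+IL-6 (adjusted p = 0.0786), without replicate 2 of IL-4 (adjusted p = 0.0799), with only the libraries compared or with upper-quartile normalization. Its level in IL-6+IL-13 was 1.201-fold that of control (adjusted p = 0.0229), a call lost with upper-quartile normalization and when replicate 1 or 3 of control or replicate 2 of IL-6+IL-13 was left out (adjusted p = 0.0514, 0.0731 and 0.0505).

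Mvd, the decarboxylase that ends the mevalonate steps, had the largest fold changes with IL-6 among the enzymes in both arms. It measured 75.8, 71.9 and 70.6 normalized CPM in control, 31.4, 28.1 and 33.9 in IL-4 and 27.8, 23.99 and 31.02 in IL-13, which was 2.33-fold lower with IL-4 (log2 fold change -1.22, SE 0.088, adjusted p = 2.03e-09) and 2.63-fold lower with IL-13 (log2 fold change -1.40, SE 0.089, adjusted p = 5.63e-10). The IL-4+IL-6 libraries held 55.6, 58.2 and 57.3 and the IL-6+IL-13 libraries 79.4, 86.6 and 81.9, so that neither set overlapped with its partner without IL-6. The rise was 1.83-fold with IL-4 (log2 fold change 0.87, SE 0.088, adjusted p = 3.68e-07) and 2.99-fold with IL-13 (log2 fold change 1.58, SE 0.089, adjusted p = 3.77e-10). Relative to control, Mvd stayed lower in IL-4+IL-6 (log2 fold change -0.35, adjusted p = 0.00144), while in IL-6+IL-13 the difference of 0.18 (interval 0.01 to 0.36) did not pass the test.

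The other genes of this stretch were less uniform with IL-4 or IL-13 alone. Acat2, which joins acetyl-CoA units, has a close paralog, Acat3, with which reads could be shared. It passed the test with neither cytokine alone, and rose from 23.8, 24.3 and 26.9 normalized CPM in IL-13 to 52.4, 60.2 and 51.8 in IL-6+IL-13 (2.19-fold, adjusted p = 1.07e-07). Mvk and Pmvk, the kinases that phosphorylate mevalonate in turn, likewise passed the test with neither cytokine alone, and IL-6 raised them 1.57-fold and 1.91-fold over IL-13. With IL-4, Pmvk measured 25.6, 26.2 and 26.5 normalized CPM without IL-6 and 25.9, 41.5 and 25.5 with it, and replicate 2 of IL-4+IL-6 alone stood above the IL-4 libraries. Idi1, the isomerase that makes the isoprenoid units interconvertible, fell 1.64-fold with IL-4 and 1.34-fold with IL-13, and IL-6 raised it 1.26-fold over IL-4 and 2.16-fold over IL-13. The call over IL-4 was lost without replicate 1 of IL-4 (adjusted p = 0.0561).

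The middle steps lead to squalene and lanosterol. Fdps, farnesyl diphosphate synthase, had the lowest level per length of the enzymes, at 1.48 FPKM ± 0.17 (SD, n = 3) in control and 2.60 ± 0.11 (SD, n = 3) in IL-6+IL-13. Its exons share 1124 bases with Gm43738 on the same strand, and if reads that fit both were set aside the level of Fdps would be understated. With IL-6 it rose 1.597-fold over IL-4 (adjusted p = 0.00829, or 0.0574 and no call without replicate 2 of IL-4) and 2.68-fold over IL-13 (adjusted p = 5.35e-06). Fdft1, squalene synthase, rose 2.48-fold when IL-6 was added to IL-13, from 36.04, 35.98 and 37.7 to 93.4, 86.5 and 92.5 normalized CPM (log2 fold change 1.31, SE 0.087, adjusted p = 3.61e-09), and 1.25-fold when it was added to IL-4 (adjusted p = 0.0084). The latter was not called without replicate 2 of IL-4+IL-6 (adjusted p = 0.0574), without replicate 1 of IL-4 (adjusted p = 0.0676) or with only the libraries compared. Fdft1 shares 774 exonic bases with Ctsb on the opposite strand, a gene with a mean count of 2.84e+05, and since it is not stated whether counting used the strand, the level of Fdft1 is uncertain.

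Sqle, squalene epoxidase, was the enzyme that IL-4 and IL-13 each raised. It measured 91.2, 87.3 and 85.9 normalized CPM in control, 109, 109.7 and 112 in IL-4 and 117, 135 and 125 in IL-13. With IL-6 the levels were 161, 162 and 149 in IL-4+IL-6 and 254, 265 and 256 in IL-6+IL-13. Each cytokine group lay above control, and each group with IL-6 above its partner without it. The rises over control were 1.25-fold with IL-4 (log2 fold change 0.33, SE 0.063, adjusted p = 0.000201), 1.42-fold with IL-13 (log2 fold change 0.51, SE 0.062, adjusted p = 2.15e-06), 1.78-fold with IL-4+IL-6 (adjusted p = 2.3e-09) and 2.93-fold with IL-6+IL-13 (adjusted p = 1.29e-12). Lss, which closes the sterol rings to form lanosterol, instead fell 1.77-fold with IL-4 and 1.503-fold with IL-13, and IL-6 raised it 1.31-fold over IL-4 and 2.25-fold over IL-13. The call over IL-4 was lost without replicate 3 of IL-4 (adjusted p = 0.0523).

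The late steps convert lanosterol to cholesterol, and 7 of these 8 enzymes differed between the arms in their IL-6 effect. All 7 had the lower IL-6 effect with IL-4, a call made for 4.42% of all genes. Cyp51, the lanosterol demethylase, measured 103, 97.6 and 101 normalized CPM under IL-4 alone, 94.5, 113 and 99.1 in IL-4+IL-6, overlapping sets with a log2 difference of 0.02 (interval -0.13 to 0.18, adjusted p = 0.85). In IL-13 it measured 108, 112 and 103 and in IL-6+IL-13 242, 238 and 215, a rise of 2.16-fold (log2 fold change 1.11, SE 0.073, adjusted p = 2.77e-09). The difference of the IL-6 effects was -1.09 on the log2 scale (SE 0.10, adjusted p = 3.21e-06). Cyp51 was the synthesis enzyme with the largest such difference, and its control libraries stood at 135, 135 and 126.

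Sc5d, a sterol desaturase, had with Mvd the largest falls of the enzymes under IL-4, from 106, 116 and 103 normalized CPM in control to 41.7, 44.5 and 51.7 (log2 fold change -1.24, SE 0.081, adjusted p = 6.37e-10), and stood at 51.1, 52.5 and 54.3 in IL-13 (log2 fold change -1.04, SE 0.081, adjusted p = 7.41e-09). Adding IL-6 to IL-4 left it at 43.2, 46.3 and 45.6 (log2 difference -0.03, interval -0.20 to 0.15). Adding IL-6 to IL-13 raised it to 99.3, 103 and 91.1 (log2 fold change 0.89, SE 0.081, adjusted p = 1.73e-07), where the difference from control was -0.15 (interval -0.32 to 0.02).

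Dhcr7, the reductase of the last step, moved in opposite directions. IL-6 lowered it in the presence of IL-4, from 46.1, 41.6 and 41.5 to 34.3, 32.5 and 32.5 normalized CPM (log2 fold change -0.38, SE 0.071, adjusted p = 0.000365), and raised it in the presence of IL-13, from 38.02, 41.4 and 38.3 to 55.7, 53.9 and 51.8 (log2 fold change 0.45, SE 0.070, adjusted p = 8.77e-05). Neither pair of groups overlapped, and the interaction was -0.83 (adjusted p = 3.64e-05).

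Tm7sf2, Msmo1 and Nsdhl, which reduce the sterol ring or take part in removing its methyl groups, were not called for IL-6 with IL-4, with log2 differences of -0.02, 0.06 and -0.03, and rose 1.63-fold, 1.72-fold and 1.66-fold for IL-6 with IL-13. Tm7sf2 shares 532 exonic bases with Vps51 on the same strand. Hsd17b7, a reductase of the same demethylation complex, rose with IL-6 in both arms, 1.32-fold with IL-4 (adjusted p = 0.00361) and 2.07-fold with IL-13 (adjusted p = 1.69e-07). Ebp, the sterol isomerase, was the enzyme for which adding IL-6 to IL-13 did not pass the test (log2 fold change 0.32, SE 0.12, adjusted p = 0.0621), with 64.1, 51.1 and 52.7 normalized CPM in IL-13 and 74.04, 64.9 and 70.2 in IL-6+IL-13. Its interaction of -0.12 (interval -0.47 to 0.24) was not called, nor were those of Mvk (-0.48, adjusted p = 0.0844) and Fdps (-0.75, adjusted p = 0.0947).

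**Figure D3:**
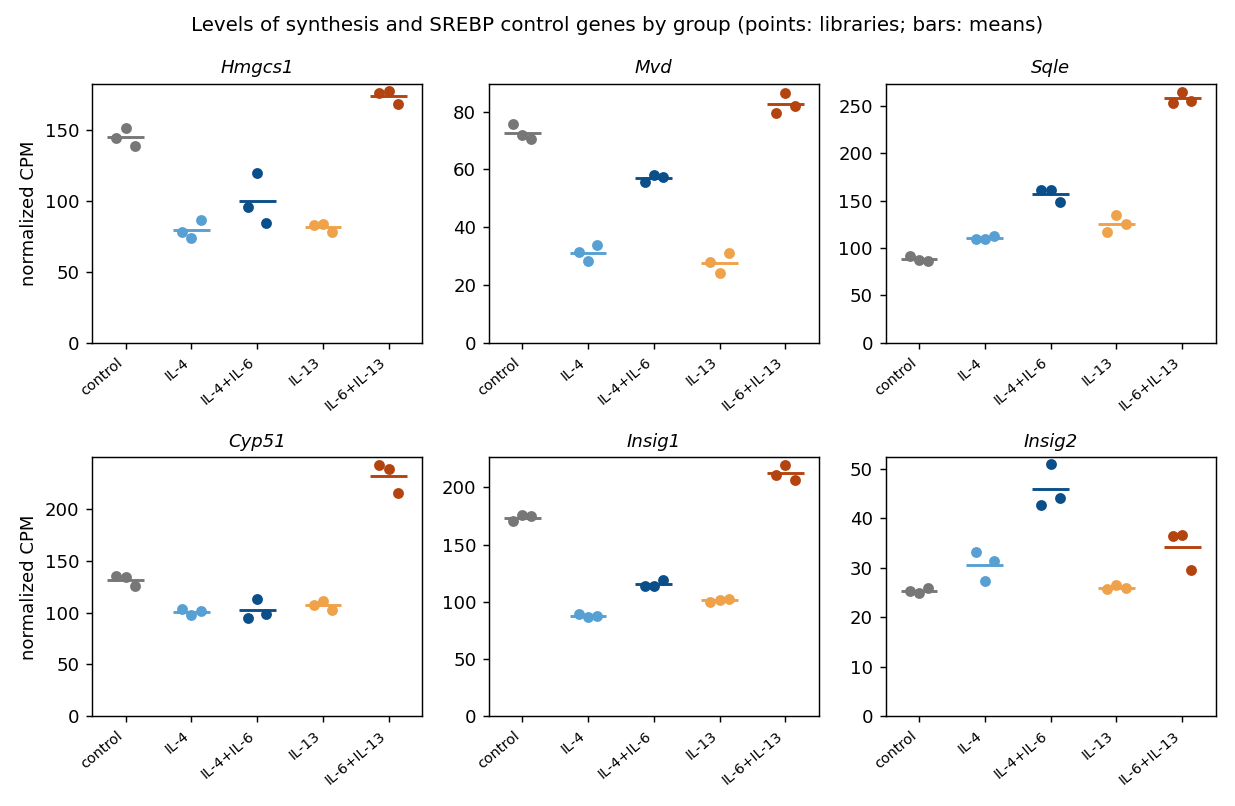
Normalized CPM (vertical axes, from 0) of 4 synthesis enzymes, Insig1 and Insig2 in the 5 groups, with a point for each library and a bar for the group mean. In Hmgcs1, Mvd, Cyp51 and Insig1 the IL-4 and IL-13 libraries lie below control and the IL-6+IL-13 libraries above it, Sqle lies above control in all 4 cytokine groups, and Insig2 is highest in IL-4+IL-6.

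Among the genes that control SREBP, Insig1 fell with either cytokine alone and rose with IL-6, while Insig2 rose with IL-4 and with IL-6. Insig1, itself known as an SREBP target, measured 170.4, 176 and 175 normalized CPM in control, 88.9, 86.4 and 87.5 in IL-4 and 99.5, 102 and 103 in IL-13. With IL-6 it measured 114, 113 and 119 in IL-4+IL-6 and 211, 219.6 and 207 in IL-6+IL-13. It fell 1.98-fold with IL-4 (log2 fold change -0.99, SE 0.053, adjusted p = 4.91e-11) and 1.71-fold with IL-13 (log2 fold change -0.78, SE 0.053, adjusted p = 1.45e-09). IL-6 raised it 1.32-fold over IL-4 (log2 fold change 0.40, SE 0.053, adjusted p = 1.02e-05) and 2.095-fold over IL-13 (log2 fold change 1.07, SE 0.053, adjusted p = 8.08e-11), with an interaction of -0.67 (adjusted p = 1.9e-05). None of these groups overlapped with the group it was compared with.

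Insig2 measured 25.2, 24.9 and 25.9 normalized CPM in control, 33.2, 27.2 and 31.3 in IL-4, 25.6, 26.5 and 25.9 in IL-13, 42.8, 50.97 and 44.1 in IL-4+IL-6 and 36.5, 36.5 and 29.5 in IL-6+IL-13. IL-4 raised it 1.21-fold (adjusted p = 0.0217), a call lost when replicate 2 of control or replicate 1 of IL-4 was left out (adjusted p = 0.0508 and 0.0548), and IL-13 left it within a log2 difference of 0.04 (interval -0.17 to 0.25). IL-6 raised it 1.501-fold over IL-4 (log2 fold change 0.59, SE 0.10, adjusted p = 9.12e-05) and 1.31-fold over IL-13 (adjusted p = 0.00569). The interaction of 0.19 (interval -0.10 to 0.48) was not called. Per length, Insig1 was the more abundant paralog in every group, with means of 58.6 FPKM in control and 35.3 in IL-4+IL-6 beside 7.62 and 12.5 for Insig2.

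The SREBP genes themselves changed less than Insig1 with IL-4 or IL-13 alone and on adding IL-6, though not always less than Insig2. From control to IL-6+IL-13 they changed more than Insig1, with log2 fold changes of 0.62 for Srebf1 and 0.59 for Srebf2 beside 0.29. Srebf2, whose product chiefly drives cholesterol synthesis, was called with neither IL-4 nor IL-13, and rose when IL-6 was added to IL-13, from 229, 244 and 254 to 329, 361 and 353 normalized CPM (log2 fold change 0.52, SE 0.084, adjusted p = 0.000135). With IL-4 it measured 231, 223 and 218 without IL-6 and 266, 210.02 and 279 with it, where replicate 2 fell below the IL-4 libraries (log2 difference 0.17, adjusted p = 0.131). Srebf1, whose product chiefly drives fatty acid synthesis, rose 1.26-fold with IL-4 and 1.33-fold with IL-13, and IL-6 raised it a further 1.15-fold over IL-13 (adjusted p = 0.0116), a call lost without replicate 2 or 3 of IL-6+IL-13 (adjusted p = 0.0747 and 0.0561) and with no filter on low counts. The interaction was called for neither Srebf2 (-0.35, adjusted p = 0.0879) nor Srebf1 (-0.22, adjusted p = 0.118). Scap passed the test in no comparison, and all its libraries lay between 38.2 and 47.0 normalized CPM.

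The promoters of these genes were searched because 17 of the 18 enzymes rose when IL-6 was added to IL-13. Windows from 250 bases before to 50 bases after an annotated start, from RefSeq on GRCm38.p6, were held for 28 of the 34 genes, and 6 genes, Abcg1, Stard4, Fdps, Sqle, Fdft1 and Npc1, had none. The sterol regulatory element was searched as TCACNCCAC and the CCAAT box, which binds NF-Y, a partner of SREBP, as CCAAT, each on both strands. The sterol element was found in 1 of 28 genes, Hmgcs1, and in 1.44% of all genes with a window. The CCAAT box was found in 21 of 28 (75.0%) beside 41.1% of all genes and 42.9% of the genes tested for expression. It was present in 14 of 15 synthesis enzymes (93.3%), Acat2 being the one without, and in 7 of 13 of the other genes (53.8%). A direct repeat of AGGTCA with 4 bases between the copies, the form that LXR binds, was found in 0 of the 28 genes and in 0.0148% of all genes with a window. Among the 9984 genes tested for expression that had a window it was found in 0. The search for this exact repeat therefore cannot set the members apart from other genes. A match shows only that these letters are in the window. A missing match does not show that an element is absent, since only these exact strings and this window were searched. The stretches before the start are given for Hmgcs1, for Mvd, the enzyme with the largest IL-6 effects, and for Msmo1, which holds 3 CCAAT boxes, with those of the INSIG and SREBP paralogs for comparison. Msmo1 does not stand alone in this, since the window of Mvk holds more boxes and that of Hsd17b7 as many. Each is 5′ to 3′ on the strand of the gene, and capitals mark the sterol element and the CCAAT boxes (ATTGG where the box lies on the other strand).
Hmgcs1, chr13:119690101-119690325, plus strand: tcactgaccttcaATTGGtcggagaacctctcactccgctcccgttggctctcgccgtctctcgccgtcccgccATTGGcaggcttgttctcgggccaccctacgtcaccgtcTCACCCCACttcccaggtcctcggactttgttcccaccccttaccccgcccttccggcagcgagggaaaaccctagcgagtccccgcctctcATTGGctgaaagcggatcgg
Mvd, chr8:122443430-122443497, minus strand: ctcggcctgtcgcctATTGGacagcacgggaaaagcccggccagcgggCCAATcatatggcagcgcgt
Msmo1, chr8:64733614-64733753, minus strand: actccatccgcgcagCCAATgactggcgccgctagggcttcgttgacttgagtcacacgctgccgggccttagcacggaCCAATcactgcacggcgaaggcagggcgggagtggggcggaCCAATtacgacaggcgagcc
Insig1, chr5:28071181-28071215, plus strand: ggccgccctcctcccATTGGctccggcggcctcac
Insig2, chr1:121332599-121332740, minus strand: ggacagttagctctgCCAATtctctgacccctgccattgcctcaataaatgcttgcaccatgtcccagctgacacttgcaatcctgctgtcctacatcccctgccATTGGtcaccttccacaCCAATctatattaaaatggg
Srebf1, chr11:60222728-60222762, minus strand: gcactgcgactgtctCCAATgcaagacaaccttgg
Srebf2, chr15:82147119-82147153, plus strand: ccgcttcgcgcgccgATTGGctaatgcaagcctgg

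In the Hmgcs1 stretch the sterol element TCACCCCAC stands 137 bases before the start (position -137), and its CCAAT boxes begin at positions -237, -176 and -45. Insig2 holds 3 boxes in its window, and Insig1 and Srebf2 hold 1. Srebf1 has a box at position -166 in the window shown and another at position -30 in the window of a different annotated start.

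Of the genes that move or store sterols within the cell, Soat1 and Ch25h changed most from control. Soat1, which esterifies cholesterol for storage in droplets, measured 685, 682 and 682 normalized CPM in control. The other groups held 335, 319.5 and 348 (IL-4), 297, 335 and 324 (IL-4+IL-6), 312, 359.9 and 336 (IL-13) and 321, 315 and 308 (IL-6+IL-13). Every cytokine library was thus below every control library, with falls of 2.04-fold for IL-4 (log2 fold change -1.03, SE 0.064, adjusted p = 3.06e-10) and 2.03-fold for IL-13 (log2 fold change -1.02, SE 0.064, adjusted p = 4.63e-10). IL-6 passed the test in neither arm, with log2 intervals for its effect of -0.20 to 0.07 over IL-4 and -0.23 to 0.04 over IL-13.

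Ch25h, which hydroxylates the side chain of cholesterol to make an oxysterol, held at most 1 count in a control library, and its levels there were 0.0521, 0 and 0 normalized CPM. They were 7.81, 8.97 and 7.91 in IL-4, 2.84, 2.03 and 1.39 in IL-13, 77.01, 109 and 75.8 in IL-4+IL-6 and 14.8, 13.6 and 13.96 in IL-6+IL-13. Set against a floor of 3 counts per control library, which covers counting error only, Ch25h was at least 50.3-fold higher with IL-4, 12.7-fold with IL-13, 534-fold with IL-4+IL-6 and 86.2-fold with IL-6+IL-13. IL-6 raised it 10.6-fold over IL-4 (log2 fold change 3.41, SE 0.16, adjusted p = 2.59e-11) and 6.76-fold over IL-13 (log2 fold change 2.76, SE 0.21, adjusted p = 1.58e-08), and the difference of these effects was 0.65 (interval 0.07 to 1.23, adjusted p = 0.207). No group overlapped with another. Ch25h shares 159 exonic bases with a lowly counted transcript on the opposite strand.

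Stard4, a soluble carrier of sterols, fell 1.44-fold with IL-4 (adjusted p = 5.19e-05) and 1.19-fold with IL-13 (adjusted p = 0.0212), the latter a call lost when replicate 3 of control or replicate 1 of IL-13 was left out (adjusted p = 0.071 and 0.22) and with no filter on low counts, and rose 1.74-fold with IL-6 over IL-13, from 55.9, 69.8 and 66.7 to 112, 119 and 102 normalized CPM (adjusted p = 1.56e-06). Npc1 and Npc2, which pass cholesterol out of the lysosome, were lower than control in all 4 cytokine groups. Npc1 fell 1.503-fold with IL-4 and 1.46-fold with IL-13, and it shares 511 exonic bases with Rmc1 on the opposite strand. In IL-4+IL-6 it measured 387, 272 and 431 normalized CPM beside 463, 462 and 472 in control, and the call of a fall there was lost without replicate 2, the lowest (adjusted p = 0.105), and with only the libraries compared. Npc2 fell 1.36-fold with IL-4 and a further 1.27-fold on adding IL-6 (adjusted p = 0.0103), and in the IL-13 arm IL-6 gave -0.24 on the log2 scale (adjusted p = 0.0849). Without replicate 2 or 3 of IL-13 the fall of Npc2 with IL-13 was not called (adjusted p = 0.0504 and 0.0517).

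Of the 6 LXR and efflux genes, IL-4 lowered 3, Abca1, Nr1h3 and Mylip, against 35.9% of all genes, and IL-13 lowered 4, these and Abcg1, against 31.1%. IL-6 lowered Abca1, Abcg1 and Nr1h3 in both arms, against 18.7% with IL-4 and 13.5% with IL-13, and raised 1, Mylip, with IL-4. Against control, 4 were lower in IL-4+IL-6 (37.5% of all genes) and 5 in IL-6+IL-13 (32.1%), and 0 were higher. The median log2 fold change of the 6 was -0.78 with IL-4 and -0.99 with IL-13.

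Abca1, the exporter that loads lipid-poor apolipoprotein A-I, had the largest falls of all 34 genes. It measured 187, 199 and 213 normalized CPM in control, 23.4, 15.997 and 20.5 in IL-4 and 25.8, 43.8 and 40.3 in IL-13, falls of 9.98-fold (log2 fold change -3.32, SE 0.18, adjusted p = 5.03e-11) and 5.45-fold (log2 fold change -2.45, SE 0.17, adjusted p = 1.89e-09). With IL-6 it measured 4.196, 4.54 and 6.16 in IL-4+IL-6 and 10.6, 15.03 and 12.2 in IL-6+IL-13. IL-6 thus lowered it a further 4.02-fold over IL-4 (log2 fold change -2.01, SE 0.21, adjusted p = 6.74e-07) and 2.896-fold over IL-13 (log2 fold change -1.53, SE 0.18, adjusted p = 5.34e-06), and it stood 40.1-fold below control in IL-4+IL-6 and 15.8-fold below in IL-6+IL-13. Each group with IL-6 lay below its partner, and the interaction of -0.47 (interval -1.08 to 0.13) was not called.

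Abcg1, the exporter to mature high-density lipoprotein, was called lower with IL-13 and with IL-6 in both arms. It measured 171, 174 and 165 normalized CPM in control, 154, 137 and 145 in IL-4 and 80.2, 96.9 and 107 in IL-13. The IL-4 libraries lay below control without passing the test (log2 difference -0.22, interval -0.47 to 0.02, adjusted p = 0.0976), while IL-13 lowered it 1.79-fold (log2 fold change -0.84, SE 0.12, adjusted p = 9.26e-06). With IL-6 the levels were 62.2, 72.5 and 81.4 in IL-4+IL-6 and 29.7, 39.9 and 39.8 in IL-6+IL-13, falls of 2.02-fold (log2 fold change -1.01, SE 0.12, adjusted p = 2.06e-06) and 2.6-fold (log2 fold change -1.38, SE 0.12, adjusted p = 1.34e-07) that separated the groups. Whether IL-4 and IL-13 differed in this gene was not tested.

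Of the LXR receptor genes, Nr1h3 fell in all 6 comparisons and Nr1h2 passed the test in 0. Nr1h3, which encodes LXR-alpha, measured 50.02, 59.6 and 53.8 normalized CPM in control, 20.9, 21.4 and 22.1 in IL-4, 29.2, 22.7 and 22.7 in IL-13, 8.34, 9.07 and 7.54 in IL-4+IL-6 and 14.1, 11.01 and 15.02 in IL-6+IL-13. It fell 2.54-fold with IL-4 (log2 fold change -1.35, SE 0.12, adjusted p = 2.48e-08) and 2.19-fold with IL-13 (log2 fold change -1.13, SE 0.12, adjusted p = 2.6e-07), and IL-6 lowered it again, 2.58-fold over IL-4 (log2 fold change -1.37, SE 0.13, adjusted p = 1.91e-07) and 1.86-fold over IL-13 (log2 fold change -0.90, SE 0.12, adjusted p = 2.62e-05). Each step separated the libraries. For Nr1h2, which encodes LXR-beta, all libraries lay between 100.5 and 121.8 normalized CPM. Per length, the order of the receptors was the same in every group, with Nr1h2 above Nr1h3, at 33.7 and 22.6 FPKM in control and 32.8 and 3.12 in IL-4+IL-6.

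Mylip was the only member for which the interaction test called a larger IL-6 effect with IL-4. It measured 58.6, 63.6 and 61.04 normalized CPM in control, 16.96, 16.8 and 15.2 in IL-4 and 20.99, 24.4 and 23.5 in IL-13, falls of 3.74-fold (log2 fold change -1.90, SE 0.093, adjusted p = 1.47e-11) and 2.66-fold (log2 fold change -1.41, SE 0.091, adjusted p = 6.48e-10). In IL-4+IL-6 it measured 62.2, 59.9 and 74.5, a rise of 4.01-fold over IL-4 (log2 fold change 2.00, SE 0.093, adjusted p = 1.76e-11) to libraries that overlapped with control (log2 difference 0.10, interval -0.08 to 0.28). In IL-6+IL-13 it measured 24.5, 26.7 and 24.6, where the difference from IL-13 was 0.14 (interval -0.06 to 0.33, adjusted p = 0.325). The interaction was 1.87 on the log2 scale (SE 0.13, adjusted p = 1.95e-07).

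Apoe, the apolipoprotein that macrophages secrete, had the highest level per length of the 34 genes in every group, from 3470 FPKM ± 567 (SD, n = 3) in IL-4+IL-6 to 5045 ± 388 (SD, n = 3) in control. Neither cytokine alone changed it past the test. In IL-6+IL-13 it was lower than control (log2 fold change -0.34, SE 0.12, adjusted p = 0.0171), a call lost when replicate 2 of control or of IL-6+IL-13 was left out (adjusted p = 0.0761 and 0.067). In IL-4+IL-6 it was lower than control by 1.31-fold (adjusted p = 0.00707), although replicate 2 of that group overlapped with control.

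**Figure D4:**
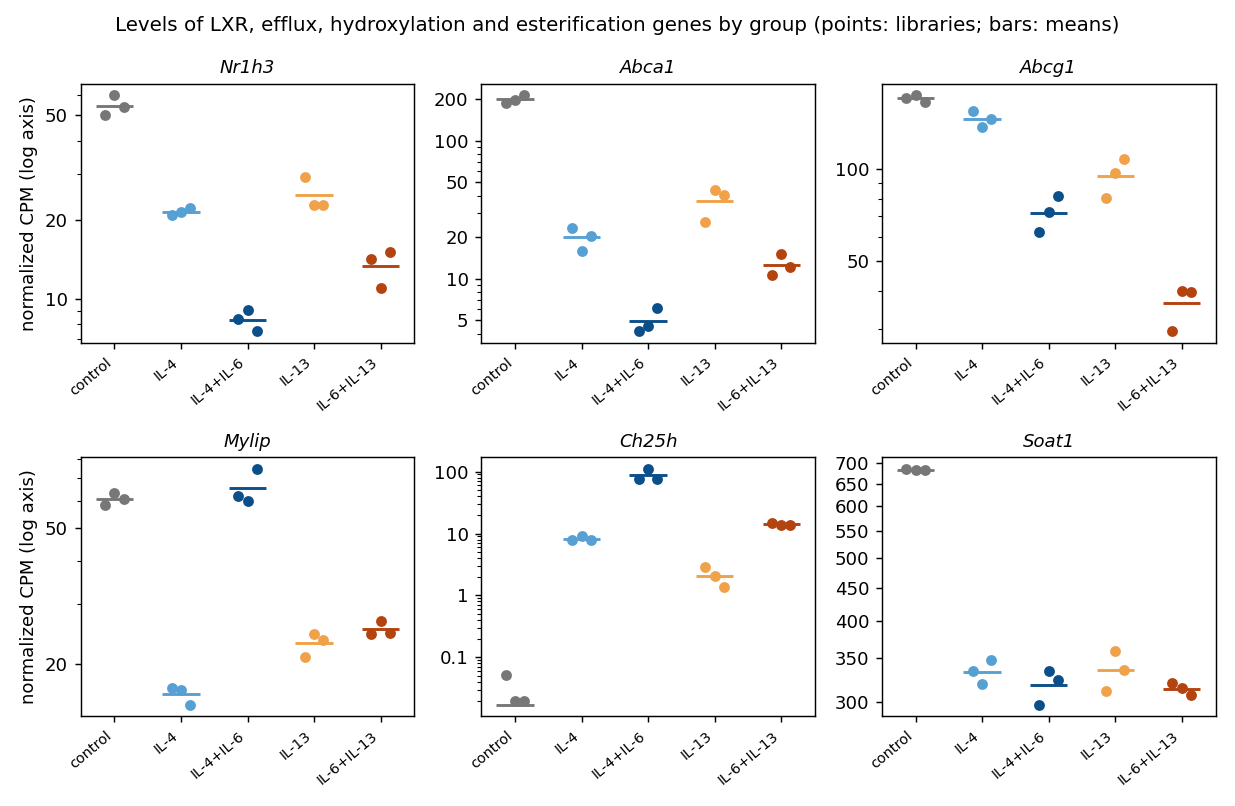
Normalized CPM on log axes for Nr1h3, Abca1, Abcg1, Mylip, Ch25h and Soat1 in the 5 groups, with a point for each library and a bar for the group mean. Control libraries of Ch25h without a count are drawn at 0.02. Nr1h3, Abca1 and Abcg1 step down with IL-6 in both arms, Mylip returns to between 59.9 and 74.5 in IL-4+IL-6 and stays between 24.5 and 26.7 in IL-6+IL-13, and Soat1 is lower in all 4 cytokine groups.

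Other genes of the pathway, taken from lists of genes that are no members, were counted for the IL-6 comparisons, where 20.7% of all genes rose and 18.7% fell over IL-4, and 12.1% rose and 13.5% fell over IL-13. The interaction called 3.22% of all genes higher with IL-4 and 4.42% lower. Of 22 tested genes of sterol and isoprenoid metabolism, IL-6 raised 9 and lowered 5 over IL-4 (median log2 fold change 0.018), raised 8 and lowered 3 over IL-13 (median 0.12), and the interaction was called for 1. Aacs, which makes acetoacetyl-CoA, rose 2.02-fold over IL-4 and 2.01-fold over IL-13 (adjusted p = 4.93e-10 and 9.75e-10). Soat2, the paralog of Soat1, rose 1.65-fold over IL-4 and 2.78-fold over IL-13 (adjusted p = 0.00281 and 3.97e-06). Lipa, the lysosomal lipase that frees cholesterol from its esters, fell 3.12-fold and 2.77-fold (adjusted p = 3.34e-12 and 2.77e-11), and Cyp27a1, a sterol hydroxylase, fell 2.13-fold and 1.70-fold (adjusted p = 1.22e-05 and 0.000456).

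Of 9 tested genes of lipoprotein uptake, IL-6 raised 1 and lowered 5 over IL-4, and raised 1 and lowered 3 over IL-13. The interaction was called for 4, all with the lower IL-6 effect in IL-4, among them Cd36, Msr1 and Scarb1. The gene that rose in both arms was Msr1, a scavenger receptor (1.30-fold and 1.98-fold, adjusted p = 4.61e-05 and 7.16e-10). Cd36, another scavenger receptor, fell 2.53-fold over IL-4 and 1.66-fold over IL-13 (adjusted p = 2.06e-11 and 8.8e-08). Sort1, the sorting receptor sortilin, fell 1.67-fold and 1.79-fold (adjusted p = 6.01e-05 and 2.31e-05).

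Of 8 tested LXR and RXR genes, IL-6 raised 2 and lowered 3 in each arm, beside 20.7% and 18.7% of all genes with IL-4 and 12.1% and 13.5% with IL-13. Lpl, lipoprotein lipase, fell 2.46-fold over IL-4 and 1.75-fold over IL-13 (adjusted p = 6.87e-11 and 6.1e-08). The next largest falls were those of Abca7 over IL-4 (1.63-fold, adjusted p = 2.99e-05) and of Pltp, a phospholipid transfer protein, over IL-13 (1.38-fold, adjusted p = 0.000147). Rxra, the partner receptor of LXR, rose in both arms (log2 fold change 0.59 and 0.35, adjusted p = 8.14e-06 and 0.00212), Arl4c rose over IL-4 (1.29-fold, adjusted p = 2.43e-05) and Lpcat3 over IL-13 (log2 fold change 0.27, adjusted p = 0.00577). The interaction was called for Arl4c (0.35, adjusted p = 0.00688) and Lpl (-0.495, adjusted p = 0.00252).

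Of 12 tested genes of fatty acid synthesis, which SREBP-1 controls, IL-6 raised 2 and lowered 5 over IL-4 (median -0.23) and raised 6 and lowered 1 over IL-13 (median 0.30). Fasn, the fatty acid synthase, and Elovl6, an elongase, were the genes raised over IL-4 (1.73-fold and 1.41-fold, adjusted p = 0.000543 and 0.00961), and both were also raised over IL-13 (1.64-fold and 1.65-fold, adjusted p = 0.00198 and 0.00057). The largest rises over IL-13 were those of Acss2, an acetyl-CoA synthetase, and Scd2, a desaturase (2.01-fold and 1.67-fold, adjusted p = 0.000885 and 0.00641). Fads2, another desaturase, fell 2.63-fold over IL-4 (adjusted p = 8.95e-09) and had a log2 difference of 0.081 over IL-13 (adjusted p = 0.592). Scd1 fell 2.46-fold over IL-4 (adjusted p = 4.61e-05) and rose 1.49-fold over IL-13 (adjusted p = 0.0191), and the gene lowered over IL-13 was Me1 (1.72-fold, adjusted p = 0.00314). The interaction was called for 4, all with the lower IL-6 effect in IL-4, namely Scd1 (-1.88), Fads2 (-1.48), Scd2 (-1.08) and Elovl5 (-0.45), beside 4.42% of all genes.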

How the data were processed

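RNA of 15 BMDM libraries was sequenced, 3 for each of 5 groups, and the groups were taken from the sample labels. The authors deposited raw gene counts, whole numbers without normalization, for 53465 identifiers, and FPKM values for 26080 genes, which equal the deposited count divided by a fixed gene length and by the library total. The submitters' processing notes name CASAVA, Bowtie2 2.2.3, HISAT2 2.1.0, TopHat2, DESeq2 and the build GRCm38. The counting tool, its settings and whether it used the strand are not given in the sources used here, so reads in overlapping exons and in close paralogs are uncertain. FPKM was used only to compare levels between genes.

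Counts were fitted with edgeR 4.0.16 in R 4.3.3, with filterByExpr (minimum count 10, 13938 genes), TMM factors (0.897 to 1.05), a coefficient for each group over all 15 libraries and the quasi-likelihood F-test, two-sided, with Benjamini-Hochberg adjustment over all genes tested. A call is an adjusted p under 0.05. The SE is the log2 fold change divided by the square root of F, and intervals are at 95%. A fold against a group with at most 3 counts in each library was computed against 3 counts per library. Totals of 17001352 to 18918686 counts per library set the precision, and replicate variation was larger, with a biological coefficient of variation of 4.48% in control, 4.54% in IL-4, 14.8% in IL-4+IL-6, 10.9% in IL-13 and 7.38% in IL-6+IL-13. Gene overlaps came from a GENCODE annotation of GRCm38.

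All 34 genes are described, with full statistics for at most 12 called genes per comparison and levels in each library for about 20. Non-members are counted by list, and for each IL-6 comparison the 2 called genes with the largest rise and the 2 with the largest fall are named, with most of those whose interaction was called; some genes are not reported here. The members and lists were chosen with earlier results of these data known. The promoter genes Mvd and Msmo1 were chosen after their values were seen. Alternatives were DESeq2 1.42.0, upper-quartile or RLE factors, no filter or a stricter filter (CPM above 1 in 3 libraries), a call also over 1.5-fold, a fit of only the libraries compared, a replicate block and fits without each library. Counts of the synthesis enzymes under these were added after the data were seen. Figures were drawn with matplotlib 3.10.9.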

Additional observations from a re-analysis of the deposited data

Results flagged for a closer look

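For 18 of the 34 genes, the log2 effect of IL-6 with IL-4 differed from that with IL-13 by the interaction test of edgeR's quasi-likelihood fit. It was lower with IL-4 for 17 and higher for 1, beside 4.42% and 3.22% of all genes. The difference, with IL-4 minus with IL-13, was -1.09 for Cyp51, -0.99 for Fdft1, -0.92 for Sc5d, -0.83 for Dhcr7, -0.78 for Lss, -0.78 for Idi1, -0.76 for Hmgcs1, -0.76 for Nsdhl and -0.73 for Tm7sf2. It was -0.72 for Msmo1, -0.71 for Mvd, -0.69 for Pmvk, -0.67 for Insig1, -0.64 for Hsd17b7, -0.60 for Stard4, -0.59 for Acat2 and -0.53 for Sqle. Mylip was the only one of the 34 called in the other direction, by 1.87. The call for Pmvk was lost under 12 of 20 alternatives, and without replicate 2 of IL-4+IL-6 it was kept.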

How the results depend on the processing

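No call on the 34 genes changed direction under any alternative run. With a call also required to be over 1.5-fold, IL-4 raised 1 and lowered 13 of the 34 genes (19.9% and 24.6% of all genes) and raised 0 and lowered 7 of the enzymes, and IL-13 raised 1 and lowered 10 (16.4% and 19.7%; enzymes 0 and 4). By that rule IL-6 raised 5 and lowered 3 over IL-4 (enzymes 2 and 0), IL-4+IL-6 raised 3 and lowered 8 over control (23.9% and 27.9%; enzymes 1 and 2), and IL-6+IL-13 lowered 5 over control (22.4%). With no filter on low counts, 3 enzymes rose with IL-4 and 2 with IL-13. With only the libraries compared, 7 of the 34 genes and 4 enzymes rose with IL-4, and 1 enzyme was lower than control in IL-6+IL-13. Upper-quartile normalization gave 5 genes lower for IL-6 over IL-13 and 2 enzymes lower than control in IL-6+IL-13. It also moved the share of higher calls among all genes from 52.6% to 39% (2073 higher, 3245 lower) for IL-6 over IL-4 and from 42.2% to 31.7% (352 higher, 757 lower) for the interaction. Leaving out each library in turn, the interaction was higher with IL-4 for between 1 and 2 of the 34 genes, the enzymes higher than control numbered between 3 and 5 in IL-4+IL-6 and between 1 and 2 in IL-13, and other counts stayed within 1.5 times. The values that differed from those in the report came without replicate 2 of IL-4+IL-6 (interaction and IL-4+IL-6) and without replicate 2 of IL-13 (IL-13). Shares over all genes are not given for the fits without a library. The replicate block kept all 28 counts within 1.5 times and lost 1 call, the interaction of Pmvk (adjusted p = 0.0509). Same-numbered replicates correlated between -0.276 and 0.163 in their deviations from the group means. With 3 libraries per group these values cannot decide whether same-numbered replicates share an animal or a preparation. DESeq2 and RLE normalization kept all 165 calls. On the deposited FPKM scale, without TMM factors, between 30 of 33 and 33 of 33 fold changes against control kept their sign. Over the bases before the start alone, the CCAAT box was found in 75% of the 28 member genes with a window and in 37.5% of all genes.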
